A study of Mus musculus with 20 samples.

Results

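The mitochondrial arm of cell death was followed here through 10 genes of the BCL2 family and the apoptosome, chosen by gene symbol from earlier work on these data and not by a threshold on their values. They are the pro-survival genes Bcl2, Bcl2l1 and Mcl1, the effectors Bax and Bak1, the BH3-only genes Bcl2l11, Bbc3 and Pmaip1, and the apoptosome genes Apaf1 and Casp9. All 10 are listed in both deposited tables, among 26099 genes in the acute table and 26486 in the survival table, and all 10 passed the filter on low values in both. RNA of 20 spleen libraries came from sub-lethally irradiated mice that had received an intravenous transplant of mouse T-cell acute lymphoblastic leukemia (T-ALL) carrying a conditional Acly allele, which all groups share. The product of Acly is ATP-citrate lyase, which splits citrate in the cytosol to supply acetyl-CoA. Acute KO spleens (4 libraries) came from overtly leukemic mice given tamoxifen (3 mg per mouse in corn oil, intraperitoneally) 72 h before collection, and acute control spleens (6 libraries) from such mice given corn oil alone. Survival KO spleens (5 libraries) came from mice given the same dose of tamoxifen 48 h after transplantation and sampled at the humane endpoint, and survival control spleens (5 libraries) from mice given corn oil at that time. The sources used here do not give the promoter that drives Cre, the number of leukemias transplanted, or the age and strain of the hosts. Tamoxifen itself cannot be told apart from Acly deletion, since no group received tamoxifen without the conditional allele. Whether each library is a separate mouse is not spelled out in the labels, and the spread between libraries that the p-values rest on may be partly technical.

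The BCL2 family sets the point at which a cell commits to apoptosis. BH3-only proteins, induced or released by stress, bind and neutralise the pro-survival proteins and activate BAX and BAK, which then open the outer mitochondrial membrane. Cytochrome c that leaks out assembles APAF1 into the apoptosome, which activates caspase-9. In the mouse thymus the immature double-positive thymocyte depends on BCL-XL, the product of Bcl2l1, while BCL2 predominates in mature thymocytes and peripheral T cells and is also made by many other blood cells.

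Acly, the targeted gene, was at 5670.0 ± 766 normalized counts in acute KO and 7735 ± 298 in acute control libraries (SD, n = 4 and 6; adjusted p = 0.000866, limma), and at 3091 ± 712 in survival KO and 7889 ± 561 in survival control libraries (SD, n = 5 each; adjusted p = 0.0016). The acute fold change of Acly was -0.46 on the log2 scale, where the median of all genes was -0.023. It was -0.081 (adjusted p = 0.654) when the libraries were scaled on their T-cell receptor beta counts. That scaling put the median of all genes at 0.35, so Acly was still below the median gene. Adjusted for the marker score described next, the fold change of Acly was -0.77 (adjusted p = 0.767). Normalized counts are the authors' values, scaled within each table, and they are compared only within a table. Library totals of these normalized counts were 19432235 to 20731983 (acute) and 19998354 to 21623571 (survival). T-lineage RNA was present in every library: all 21 T-cell and thymocyte markers passed the filter in both tables, and their summed normalized count was 186276 to 248776 in acute KO and 280152 to 292325 in acute control libraries, and 265592 to 289398 in survival KO and 254026 to 285169 in survival control libraries. The acute KO libraries stood apart in markers of other cell types. Neutrophil markers, led by Ngp and Ltf, summed to 180849 to 612169 in acute KO and 12131 to 49764 in acute control libraries. Monocyte and macrophage markers, led by Lyz2 and Itgam, summed to 26703 to 79563 in acute KO and 5620.3 to 9449 in acute control libraries. B-cell (11 of 11 tested markers called higher), NK (6 of 6) and dendritic markers (3 of 6) were higher too, at summed counts of at most 6677, 1410.3 and 629 in acute KO and 2341, 247 and 242 in acute control libraries, and no marker was at 0 in every library. Erythroid markers, at 14546 to 48034 in acute KO and 15886 to 30236 in acute control libraries, had 0 of 11 called. An unadjusted p under 0.05 was seen for 4 of them, and for 6812 of all 16363 genes. Limma called 14 of 14 neutrophil and 14 of 15 monocyte and macrophage markers higher in acute KO, and 19 of 21 T-lineage markers lower. A non-T marker score, the mean centred log2 level of the neutrophil, monocyte and macrophage, B-cell, NK and dendritic marker lists, was 0.66, 1.96, 1.61 and 1.09 in acute KO libraries 1 to 4, against -1.24 to -0.36 in acute controls. The survival groups overlapped in this score, and no marker was called between them.

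Fold changes below are KO over control, from log2(normalized count + 1), and a gene was called when its limma p, adjusted over all genes of the table, was under 0.05. Among the 10 genes, 3 rose and 1 fell in acute KO spleens, and none passed the threshold at the survival endpoint. Bcl2 rose in acute KO by 2.58-fold, Apaf1 by 1.51-fold and Casp9 by 1.31-fold, each also higher after all 3 other scalings tried. Bcl2l1 fell to 0.855 times its control level. With the libraries set to equal T-cell receptor beta counts its log2 fold change was 0.15 and not called, below the median gene at 0.35. The 4 called genes make 40.0% of the 10, against 31.4% of the 16363 genes tested, so the share called was near that of the whole table, where 16.7% were higher and 14.7% lower. The median log2 fold change was 0.098 over the 10 genes and -0.023 over all genes tested. The neighbouring steps of the pathway, the effectors and the BH3-only genes, had 0 of 5 called in limma. They also had 0 at an unadjusted p under 0.05, as seen for 6812 of all 16363 genes. These 5 genes are few, and the count depends on the setting. Bax, Bak1 and Pmaip1 were called at equal T-cell receptor beta counts, and Bcl2l11 without acute KO library 4.

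The proximal promoters of the 3 genes that rose are shown because they moved in the same direction in the same libraries. Each is the 250 bases before the RefSeq start site in build GRCm38.p6, an older build than the GRCm39 named by the submitters, read 5′ to 3′ on the gene's strand. They are chr1:106714291-106714540 on the minus strand for Bcl2, chr10:91082744-91082993 on the minus strand for Apaf1 and chr4:141793362-141793611 on the plus strand for Casp9. Capitals mark every GC box, searched as GGGCGG on both strands, the core motif bound by SP-family factors.
Bcl2: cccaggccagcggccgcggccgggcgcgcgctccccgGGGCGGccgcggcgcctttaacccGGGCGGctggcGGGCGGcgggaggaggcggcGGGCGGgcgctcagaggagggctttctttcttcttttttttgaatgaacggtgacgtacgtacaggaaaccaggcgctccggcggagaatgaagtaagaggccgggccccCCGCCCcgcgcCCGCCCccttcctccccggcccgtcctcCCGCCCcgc
Apaf1: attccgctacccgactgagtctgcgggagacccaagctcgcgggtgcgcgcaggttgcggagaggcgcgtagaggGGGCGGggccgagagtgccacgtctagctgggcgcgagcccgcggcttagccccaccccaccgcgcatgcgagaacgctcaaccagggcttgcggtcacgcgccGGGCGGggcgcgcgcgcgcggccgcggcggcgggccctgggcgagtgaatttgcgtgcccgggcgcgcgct
Casp9: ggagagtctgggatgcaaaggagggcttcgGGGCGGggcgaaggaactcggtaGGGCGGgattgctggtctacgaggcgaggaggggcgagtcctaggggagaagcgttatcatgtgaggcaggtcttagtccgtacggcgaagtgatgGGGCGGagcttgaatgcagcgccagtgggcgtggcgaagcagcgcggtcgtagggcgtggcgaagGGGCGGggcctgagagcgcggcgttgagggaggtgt
The Bcl2 window held 7 GC boxes, the Casp9 window 4 and the Apaf1 window 2. Of all 32841 such windows in the table, 32.7% held at least 1 and 8.47% held 3 or more. Their GC content was 74.8% for Bcl2, 75.6% for Apaf1 and 66% for Casp9, against a median of 52.4% and a 90th percentile of 69.2% over all windows. The E-box CACGTG, which MYC can bind, was in none of the 3 windows and in 6.02% of all windows. The CRE half-site TGACG, on either strand, occurred 1 time in the Bcl2 window, was in neither of the other windows, and was in 17.8% of all windows. No matches of the 3 motifs overlapped in these windows. Some of the other genes shared these traits and some did not. Of the 10 genes 9 had an entry in the table. Among those not called in the acute arm Bbc3 had 5, 1 and 7 GC boxes at its 3 start sites and Bcl2l11 3 and 2 at its 2. Bax had 2, Mcl1 1 and Bak1 0, and Bcl2l1, which fell, had 0 at each of its 3 start sites. The GC content was 76.4, 72.4 and 81.6% at the Bbc3 and 72 and 73.2% at the Bcl2l11 start sites. It was 64.4% for Mcl1, 58.4% for Bak1 and 54% for Bax, and 48.4, 53.2 and 47.6% at the Bcl2l1 start sites. These matches describe the letters only, and the deposited data hold no binding measurement.

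**Figure D1:**
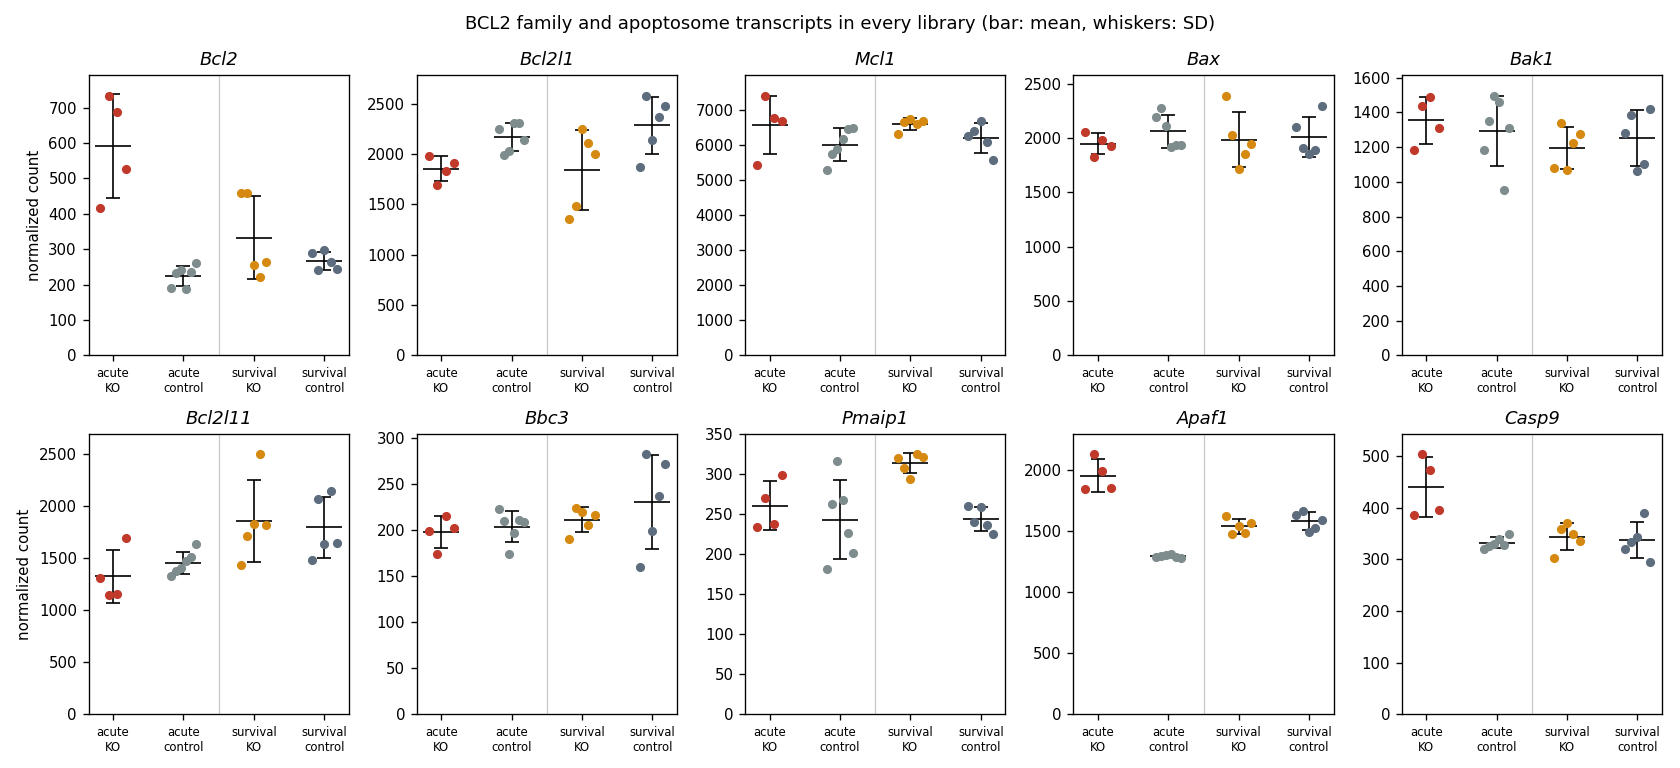
Normalized counts (y axis, from 0) of each gene in all 20 libraries, one point per library in label order, with a bar at the mean and whiskers of 1 SD, for acute KO (n = 4), acute control (n = 6), survival KO (n = 5) and survival control (n = 5). All 4 acute KO libraries lie above all acute controls for Bcl2, Apaf1 and Casp9, and all 5 survival KO libraries lie above all survival controls for Pmaip1; the 2 tables were scaled separately.

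Bcl2 encodes the founding pro-survival protein of the family, which holds BAX, BAK and BH3-only proteins in check on mitochondria. Its normalized count was 417, 734, 689 and 527 in acute KO libraries 1 to 4, against 188 (lowest), 234 (median) and 261 (highest) in the 6 acute controls. Every acute KO library was above every control, and KO libraries 2 and 3 were the highest. The means were 592 ± 147 in acute KO and 225 ± 28.9 in acute control libraries (SD, n = 4 and 6), a rise called by limma with Benjamini-Hochberg adjustment over 16363 genes (log2 fold change 1.37, SE 0.156, adjusted p = 8.57e-05). The exact two-sided permutation p was 0.00476, the smallest that 210 arrangements can give. The order of the acute KO libraries in Bcl2, from high to low, was 2, 3, 4 and 1, which is also their order in the non-T marker score. Bulk RNA cannot tell more cells of a type from more RNA per cell, and whether the Bcl2 counts come from leukemic or host cells was not measured. Without KO libraries 2 and 3 the log2 fold change was 1.07 (SE 0.148, adjusted p = 0.000922). Adjusted for the non-T marker score it was 0.15 (SE 0.273, adjusted p = 0.975), in a fit that called 0 of 16363 genes, 948 at an unadjusted p under 0.05. KO and control libraries of the acute arm have separate ranges of this score, so score and deletion cannot be told apart there.

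Bcl2l1, whose main product BCL-XL protects immature thymocytes, went the other way. It was 1980.2, 1688, 1835 and 1910.2 in acute KO libraries 1 to 4, against 1989.8 (lowest), 2191 (median) and 2307 (highest) in acute controls. The groups did not overlap, although acute KO library 1 and the lowest control were close together. The fall was called (log2 fold change -0.23, SE 0.0611, adjusted p = 0.015; means 1853 ± 125 in KO and 2168 ± 138 in control, SD, n = 4 and 6; exact permutation p = 0.00952). It was 0.15 (adjusted p = 0.173) under a scaling that set Trbc1 plus Trbc2, the T-cell receptor beta constant genes, equal in all libraries (T-cell receptor beta scaling). The mean log2 of this sum, acute KO minus acute control, was -0.38. That scaling put the median of all genes at 0.35, so relative to the median gene Bcl2l1 was -0.20 with it and -0.20 as deposited. The call was also lost without acute KO library 2 (-0.18, adjusted p = 0.0506), without libraries 2 and 3 (-0.15, adjusted p = 0.179), and after adjustment for the non-T marker score (0.21, adjusted p = 0.907).

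Mcl1, a short-lived pro-survival protein that lymphocytes need at most stages, was 5419, 7406, 6766 and 6669.6 in acute KO libraries 1 to 4, against 5279 (lowest), 6030.0 (median) and 6489 (highest) in acute controls. The groups overlapped, with KO library 1 near the bottom of the control range. The log2 fold change of 0.12 did not pass (95% confidence interval -0.059 to 0.31, adjusted p = 0.299). It was 0.21 and called without KO library 1 (adjusted p = 0.034), and 0.0051 without libraries 2 and 3 (adjusted p = 0.983). Under T-cell receptor beta scaling it was 0.50 and called (adjusted p = 0.00935). Relative to the median gene Mcl1 was 0.15 with that scaling and 0.15 as deposited.

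The effectors Bax and Bak1, whose proteins form the pores in the outer mitochondrial membrane, overlapped between the acute groups. Bax ranged over 1823 to 2055 in acute KO and 1915 to 2276 in acute control libraries, with a log2 fold change of -0.080 (95% confidence interval -0.21 to 0.055, adjusted p = 0.365). Bak1 ranged over 1186 to 1486 in acute KO and 952 to 1496 in acute control libraries, with a log2 fold change of 0.078 (95% confidence interval -0.18 to 0.33, adjusted p = 0.663). Acute control library 5 was the lowest in Bak1, and without it the log2 fold change was -0.0066. Neither interval reaches a 1.5-fold change. Under T-cell receptor beta scaling both passed as higher, Bax at 0.30 (adjusted p = 0.0305) and Bak1 at 0.45 (adjusted p = 0.0305), close to the shift of the median gene under that scaling.

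The BH3-only genes did not pass in the acute arm. Bcl2l11 encodes BIM, the main killer of self-reactive thymocytes, and was 1312, 1149.6, 1152 and 1694 in acute KO libraries 1 to 4, against 1328 (lowest), 1441 (median) and 1633 (highest) in acute controls. KO libraries 2 and 3, the highest in Bcl2, were the lowest in Bcl2l11 of all 10 acute libraries, library 1 was just below the lowest control, and library 4 was the highest of all. The log2 fold change of -0.15 (95% confidence interval -0.37 to 0.076, adjusted p = 0.309) was -0.27 and called without KO library 4 (adjusted p = 0.0168), and 0.038 without libraries 2 and 3. Bbc3, the p53 target that encodes PUMA, ranged over 173 to 215 in acute KO and 174 to 222 in acute control libraries (log2 fold change -0.044, 95% confidence interval -0.26 to 0.17, adjusted p = 0.781). Pmaip1, which encodes the MCL1 antagonist NOXA, ranged over 234 to 299.7 in acute KO and 182 to 317 in acute control libraries (log2 fold change 0.12, 95% confidence interval -0.21 to 0.44, adjusted p = 0.601). It was 0.49 and called under T-cell receptor beta scaling (adjusted p = 0.0203). Relative to the median gene Pmaip1 was 0.14 with that scaling and 0.14 as deposited.

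Both apoptosome genes rose in acute KO spleens. Apaf1, the scaffold that oligomerises on cytochrome c, was 1837, 2124, 1990.2 and 1848 in acute KO libraries 1 to 4, against 1275 (lowest), 1293 (median) and 1311 (highest) in acute controls. The controls lay close together, with a coefficient of variation of 0.982%, and every KO library was well above them. Means were 1950.1 ± 135 in acute KO and 1292 ± 12.7 in acute control libraries (SD, n = 4 and 6; log2 fold change 0.59, SE 0.0491, adjusted p = 3.84e-05; exact permutation p = 0.00476, the smallest possible). Casp9, the initiator caspase that the apoptosome recruits, was 386, 504, 474 and 395 in acute KO libraries 1 to 4, against 319.5 (lowest), 329 (median) and 349 (highest) in acute controls. The groups did not overlap, and libraries 2 and 3 were again the highest (means 439.5 ± 58.1 in KO and 332 ± 10.6 in control; log2 fold change 0.39, SE 0.086, adjusted p = 0.00487). In both genes the order of the KO libraries, from high to low, was the 2, 3, 4 and 1 seen for Bcl2 and for the non-T marker score. Mcl1, which was not called, had the same order, and Bcl2l1 had the reverse. How many of all genes had this order was not counted. Without KO libraries 2 and 3 Apaf1 was 0.51 (SE 0.049, adjusted p = 0.000149), while Casp9 was 0.23 and no longer called (adjusted p = 0.0844). Adjusted for the non-T marker score Apaf1 was 0.36 (SE 0.131, adjusted p = 0.856) and Casp9 -0.057 (SE 0.217, adjusted p = 0.988). Under T-cell receptor beta scaling, which put the median of all genes at 0.35, the fold changes were 0.97 and 0.77. Relative to the median gene the rises were about the same, Apaf1 at 0.62 with that scaling and 0.61 as deposited. Casp9 was at 0.42 in both.

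In all, the acute groups did not overlap for 4 of the 10 genes, which are the 4 called ones, against 22.7% of all genes tested (12.7% higher and 9.94% lower). The plot of Bcl2, Apaf1 and Casp9 against the marker score shows how the acute KO libraries rise along it, and the plot of settings gives each acute fold change under the alternatives named above.

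**Figure D2:**
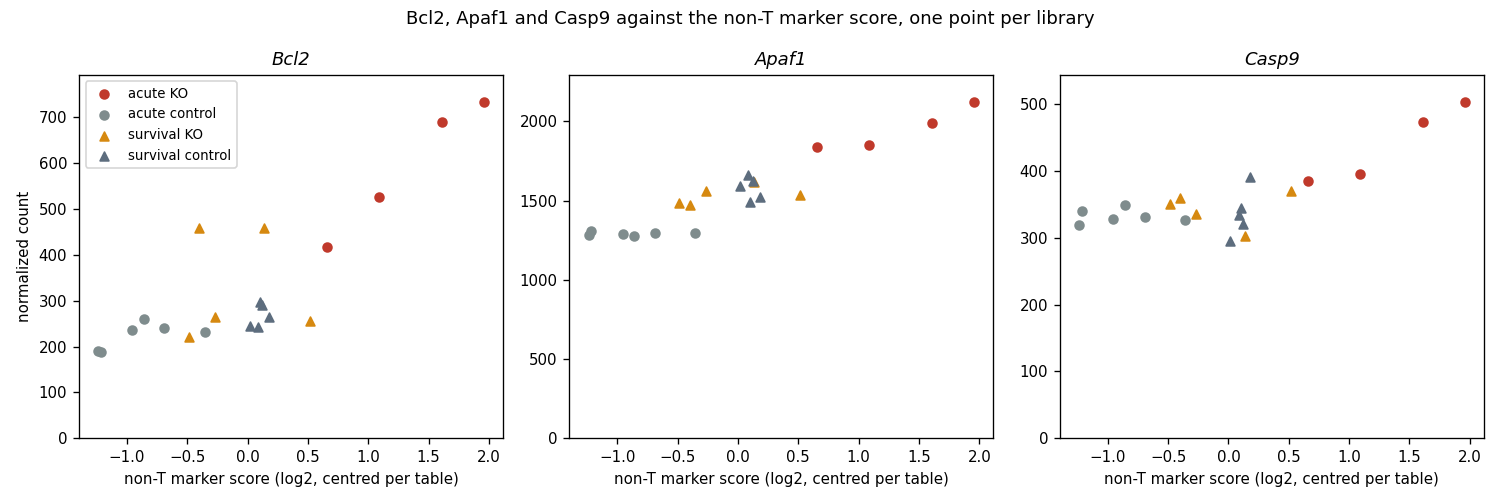
Normalized count (y axis, from 0) of Bcl2, Apaf1 and Casp9 against the non-T marker score (x axis, log2 units centred within each table, so that only points of the same table are comparable), one point per library, circles for the acute and triangles for the survival table. Acute KO libraries lie to the right of acute controls and in the same order in all 3 genes, while the 2 survival KO libraries with the most Bcl2 (459 and 458) have scores of 0.14 and -0.40.

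**Figure D3:**
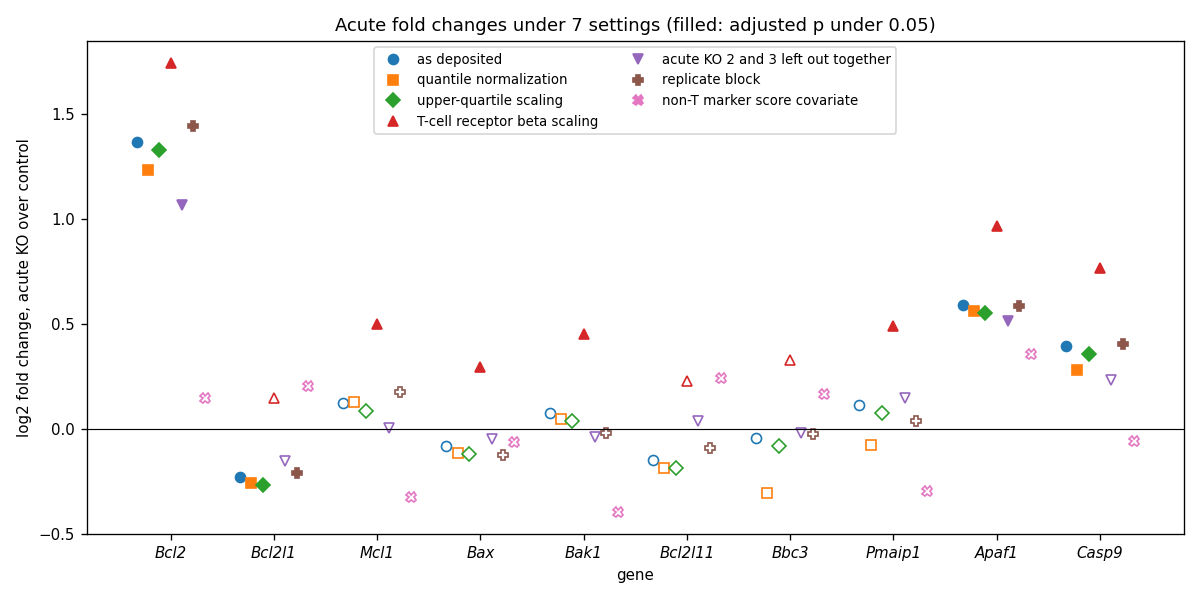
Log2 fold change, acute KO over acute control (y axis), of the 10 genes (x axis) as deposited and under the alternatives in the legend, filled where the adjusted p was under 0.05. Bcl2 and Apaf1 are filled in all settings but the covariate, and Bcl2l1 lies above 0 with T-cell receptor beta scaling and with the covariate.

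At the survival endpoint limma called 0 of the 10 genes, in a table where 0.0124% of 16136 genes were called (0.0062% higher and 0.0062% lower). Of the 10 genes 2 had an unadjusted p under 0.05 (Pmaip1 and Bcl2l1), as had 1411 of the 16136 genes. The gene with the clearest separation was Pmaip1, at 321, 308, 294, 325 and 321 in survival KO libraries 1 to 5, against 261, 239.9, 259, 236 and 225 in survival control libraries 1 to 5. Every KO library was above every control, and the spread within each group was small. Means were 314 ± 12.7 in survival KO and 244 ± 15.4 in survival control libraries (SD, n = 5 each), with a log2 fold change of 0.36 (SE 0.0815, 95% confidence interval 0.19 to 0.54, unadjusted p = 0.000665) that did not pass over all genes (adjusted p = 0.219, limma). The exact permutation p was 0.00794, the smallest that 5 against 5 libraries can give. Of the 10 genes 1 did not overlap between the survival groups, against 2.01% of all genes tested (1.21% higher and 0.793% lower). Under all 21 alternatives the Pmaip1 fold change stayed between 0.28 and 0.39, with adjusted p-values of 0.151 to 0.465.

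Bcl2 and Bcl2l1 were uneven among the survival KO libraries. Bcl2 was 459, 458, 256, 221 and 265 in survival KO libraries 1 to 5, against 291, 242, 298, 264 and 245 in survival control libraries 1 to 5. KO libraries 1 and 2 were far above the rest, and KO libraries 3 to 5 lay within or just below the control range. Bcl2l1 was 1352, 1488, 2249, 2104 and 1994 in survival KO libraries 1 to 5, against 1871, 2579, 2138, 2364 and 2476 in survival control libraries 1 to 5. The same KO libraries 1 and 2 were the lowest of all 10 in Bcl2l1. The log2 fold change was 0.24 for Bcl2 (95% confidence interval -0.18 to 0.66, adjusted p = 0.75) and -0.33 for Bcl2l1 (95% confidence interval -0.63 to -0.035, unadjusted p = 0.0311, adjusted p = 0.504). The non-T marker score was 0.14 and -0.40 in KO libraries 1 and 2 and 0.52, -0.49 and -0.27 in KO libraries 3 to 5. Whether the split in Bcl2 and Bcl2l1 goes with the cell types present was not tested.

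The other 7 genes also overlapped between the survival groups. Apaf1 was 1621, 1470.1, 1537, 1485 and 1560.4 in survival KO libraries, against 1626, 1663, 1491, 1524 and 1589 in survival control libraries, with a 95% confidence interval of -0.16 to 0.076 for the log2 fold change of -0.040. That interval lies below the acute rise of 0.59. Casp9 ranged over 303 to 370.3 in survival KO and 296 to 391 in survival control libraries (log2 fold change 0.032, 95% confidence interval -0.17 to 0.23). Mcl1 ranged over 6306 to 6731 in survival KO and 5557 to 6685 in survival control libraries, with a log2 fold change of 0.092 (95% confidence interval -0.026 to 0.21, adjusted p = 0.665). The BH3-only gene Bcl2l11 ranged over 1437 to 2499 in survival KO and 1481 to 2149.7 in survival control libraries, the highest value being KO library 4 and the lowest KO library 1. Bbc3 ranged over 189.5 to 224 in survival KO and 159 to 282 in survival control libraries, the controls being the more spread group. Fold changes of Bax (-0.023), Bak1 (-0.059), Bcl2l11 (0.041) and Bbc3 (-0.095), on the log2 scale, had adjusted p-values of 0.874 to 0.963 (limma).

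**Figure D4:**
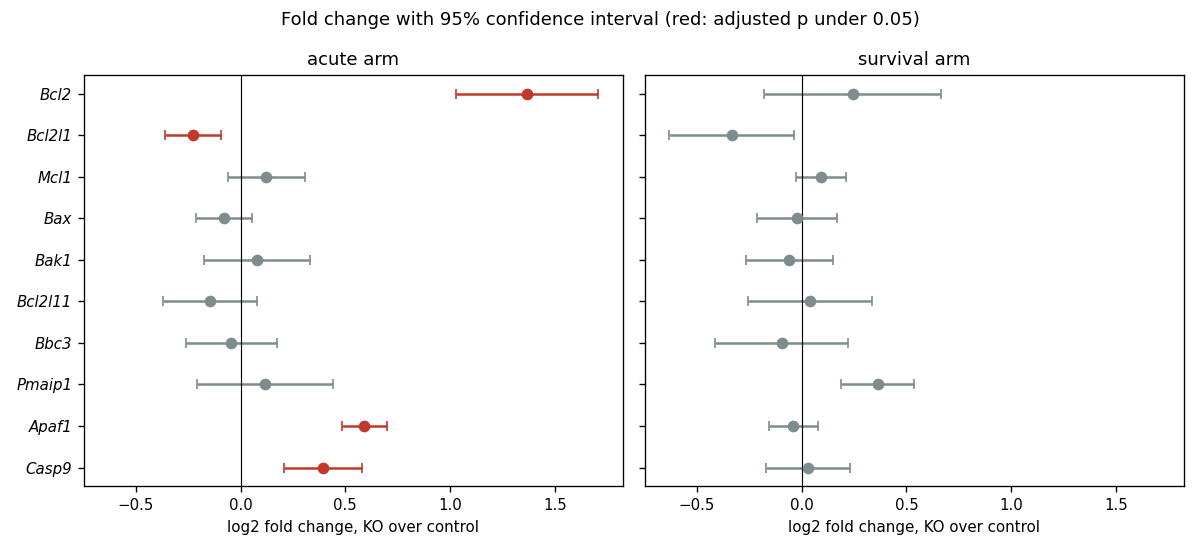
Log2 fold change, KO over control (x axis), with its 95% confidence interval from limma for each gene (rows), in the acute arm (left, n = 4 KO and 6 control libraries) and the survival arm (right, n = 5 each), red where the adjusted p was under 0.05. The acute intervals of Bcl2, Apaf1 and Casp9 lie above 0 and that of Bcl2l1 below it. With T-cell receptor beta scaling Bcl2l1 was at 0.15 and not called, below the median gene of 0.35. The survival interval of Pmaip1 lies above 0 without an adjusted p under 0.05.

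The KO effect differed between the arms for 3 of the 10 genes, where 20.2% of 15673 genes did (9.39% higher and 10.9% lower at the endpoint). The difference is the survival fold change minus the acute fold change on the log2 scale, each within its own table. It was negative for Bcl2 (difference -1.12, SE 0.268, adjusted p = 0.00537), for Apaf1 (difference -0.63, SE 0.0667, adjusted p = 8.27e-06) and for Casp9 (difference -0.36, SE 0.123, adjusted p = 0.0427), so each effect was lower at the endpoint than at 72 h. The Apaf1 difference passed under 31 of 32 alternatives, the exception being the covariate (-0.41, adjusted p = 0.992). The Bcl2 difference passed under 30 of 32, and was -0.82 without acute KO libraries 2 and 3 (adjusted p = 0.0865) and -0.18 with the covariate (adjusted p = 0.998). The Casp9 difference passed under only 14 of 32, and the call ended when any 1 of 13 libraries was left out (acute KO 2 or 3, acute control 1 to 5, survival KO 1, 4 or 5, survival control 2, 3 or 4), with values from -0.42 to -0.29 over all libraries left out in turn. Pmaip1, with a log2 fold change of 0.36 in the survival arm and 0.12 in the acute arm, had a difference of 0.25 (SE 0.169, adjusted p = 0.333), which did not pass.

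A ratio of 2 genes within a library does not depend on how that library was scaled. Its absolute size reflects transcript length, so only the difference between groups is read, and no test was made. Each ratio repeats the values of its 2 genes given above and is no further support for their changes. The pairs were chosen, and how many other pairs of genes do not overlap between groups was not counted. The log2 ratio of Bcl2 to Bcl2l11, the pro-survival gene against its BH3-only antagonist BIM, was -1.65, -0.65, -0.74 and -1.69 in acute KO libraries 1 to 4, against -2.97 to -2.55 in acute controls, and the means differed by 1.52. In the survival arm it was -1.65, -1.90, -2.84, -3.50 and -2.78 in KO libraries 1 to 5, against -2.35, -3.09, -2.46, -3.03 and -2.75 in control libraries 1 to 5, the KO group holding both the highest and the lowest values. The log2 ratio of Bcl2 to Bax averaged -1.75 ± 0.43 in acute KO and -3.20 ± 0.23 in acute control libraries (SD, n = 4 and 6), with no overlap, and -2.64 ± 0.38 in survival KO and -2.91 ± 0.22 in survival control libraries (SD, n = 5 each). Mcl1 relative to Bcl2l1 averaged 1.82 ± 0.28 in acute KO and 1.47 ± 0.13 in acute control libraries, and 1.87 ± 0.30 in survival KO and 1.45 ± 0.24 in survival control libraries, overlapping in both arms. Mcl1 relative to its antagonist Pmaip1 was 4.30 to 4.52 in survival KO and 4.58 to 4.74 in survival control libraries, with no overlap, while in the acute arm it was 4.48 to 4.83 in KO and 4.21 to 5.01 in control libraries. The log2 ratio of Apaf1 to Casp9 was 2.16 ± 0.096 in acute KO and 1.96 ± 0.049 in acute control libraries (SD, n = 4 and 6), without overlap, and 2.16 ± 0.16 in survival KO and 2.23 ± 0.19 in survival control libraries (SD, n = 5 each), with overlap. The log2 ratio of Bax to Bak1 overlapped in both arms, averaging 0.53 ± 0.20 in acute KO and 0.69 ± 0.24 in acute control libraries, and 0.73 ± 0.24 in survival KO and 0.69 ± 0.13 in survival control libraries.

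In the lists that follow, values in parentheses are acute log2 fold changes with their SE, and a gene said to rise, fall or be lower was called by limma. Around the 10 genes, 50 further symbols of the death pathway were listed by role, of which 45 were tested in the acute table. In acute KO 10 rose and 11 fell, 46.7% called in all, against 31.4% of all genes tested, with a median log2 fold change of -0.0014. Counts in the single lists below, each of few genes, are to be read against this 31.4% (16.7% higher and 14.7% lower). Under T-cell receptor beta scaling 29 were higher and 0 lower, in a table with 7355 of 16363 genes higher, 94 lower and the median gene at 0.35. Fold changes under that scaling in the lists are to be read against this median, and those of the 11 genes that fell as deposited, -0.080 to 0.22, were all below it. The count of calls was 7 without acute KO libraries 2 and 3, 11 with the replicate number as a block and 0 after adjustment for the non-T marker score. The block fit also left out acute controls 5 and 6. In the survival table limma called 0 of 44, with 1 at an unadjusted p under 0.05 (Vdac2, 0.18, adjusted p = 0.544, named after its value was seen). The KO effect differed between the arms for 10 of 44 (4 higher and 6 lower at the endpoint), which is 22.7%, against 20.2% of all genes tested.

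Among 4 tested pro-survival relatives in the acute arm, 2 rose and 1 fell. Bcl2a1b (1.17, SE 0.222) and Bcl2a1d (1.13, SE 0.298), copies of the A1 gene that blood cells including neutrophils express, rose by these log2 fold changes, to 38.1 ± 9.17 and 30.7 ± 11.3 normalized counts in acute KO, against 16 ± 1.34 and 13.4 ± 4.62 in acute control libraries. The A1 copies are nearly identical, so how reads were split between them is uncertain. Both calls were lost without acute KO libraries 2 and 3 (adjusted p = 0.0655 and 0.134). Bcl2l2, which encodes BCL-W, was lower in acute KO (-0.26, SE 0.0622), although 0.11 with T-cell receptor beta scaling. Among 3 tested other BH3-only genes, Bmf, a sensor tied to the cytoskeleton, was lower (-0.46, SE 0.0987; -0.080 and not called with that scaling), and so was Bid, which links death receptors to mitochondria (-0.17, SE 0.0501; 0.20 with that scaling). Both lost their calls without libraries 2 and 3. Of 6 tested atypical relatives 1 rose, the mitophagy receptor gene Bnip3 (1.10, SE 0.25), at 51.3 ± 9.94 in acute KO and 24 ± 7.9 in acute control libraries, and it was still called without libraries 2 and 3 (1.22, adjusted p = 0.0349). Bcl2l14 (-0.42, SE 0.114) and Bcl2l12 (-0.26, SE 0.0892) were lower, at -0.050 and 0.11 with T-cell receptor beta scaling, and were not called without libraries 2 and 3.

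Downstream of the mitochondrion, 3 of 10 genes for released factors and inhibitor-of-apoptosis (IAP) proteins rose in acute KO and 2 fell. Birc3, which encodes the ubiquitin ligase cIAP2, rose to 574 ± 102 in acute KO, against 345 ± 29.5 in acute control libraries (0.72, SE 0.111), and was 0.54 and still called without libraries 2 and 3 (adjusted p = 0.00739). The protease gene Htra2 (0.35, SE 0.105) and Birc5, which encodes survivin, a protein of mitosis (0.29, SE 0.093), also rose, and both were not called without those libraries. The 2 that fell, named after their values were seen, were Diablo (-0.21, SE 0.0576), which encodes the IAP antagonist SMAC, and Cycs (-0.18, SE 0.0503), which encodes cytochrome c; they were 0.17 and 0.20 with T-cell receptor beta scaling and not called without libraries 2 and 3. The genes reported here for the executioner step are not its full set, and no direction of that step is read from them. Of these 4 caspase and substrate genes 3 fell, the 3 being at 0.10, 0.14 and 0.22 (Dffa, Casp6 and Parp1) under T-cell receptor beta scaling, below the median gene there. These were Dffa, the inhibitor of the nuclease that cuts DNA in dying cells (-0.27, SE 0.0539), the caspase gene Casp6 (-0.24, SE 0.0654) and Parp1, which encodes a DNA repair enzyme that caspases cleave (-0.15, SE 0.0492). Without libraries 2 and 3 Dffa was still called (-0.23, adjusted p = 0.0443) and Casp6 and Parp1 were not (adjusted p = 0.0601 and 0.198).

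Among 9 tested regulators in the acute arm, Tspo, an outer mitochondrial membrane protein, rose to 2220.5 ± 816 in acute KO, against 861 ± 75 in acute control libraries (1.30, SE 0.184; 0.85 without libraries 2 and 3, adjusted p = 0.00028). Trp53, which encodes p53, was lower (-0.20, SE 0.0568), but 0.17 with T-cell receptor beta scaling and not called without libraries 2 and 3. In the death receptor list 3 of 9 rose and 0 fell in limma. These are 33.3% called, near the 31.4% of all genes tested. An unadjusted p under 0.05 was seen for 5 (the 3 and Fasl and Tnfrsf10b, named after their values were seen), and for 6812 of all 16363 genes. Tnfrsf1a, the TNF receptor, rose to 1283 ± 400.1 in acute KO, against 578 ± 35.8 in acute control libraries (1.10, SE 0.153; 0.76 without libraries 2 and 3, adjusted p = 0.000318). Cflar, which encodes the caspase-8 inhibitor c-FLIP, rose as well (0.42, SE 0.0764; 0.31 without libraries 2 and 3, adjusted p = 0.0385), as did the kinase gene Ripk1 (0.24, SE 0.0541; not called without them, adjusted p = 0.111). Adjusted for the non-T marker score Tspo was -0.13, Tnfrsf1a -0.037, Birc3 0.038 and Cflar 0.14, and Bnip3 1.41, none called in that fit.

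**Figure D5:**
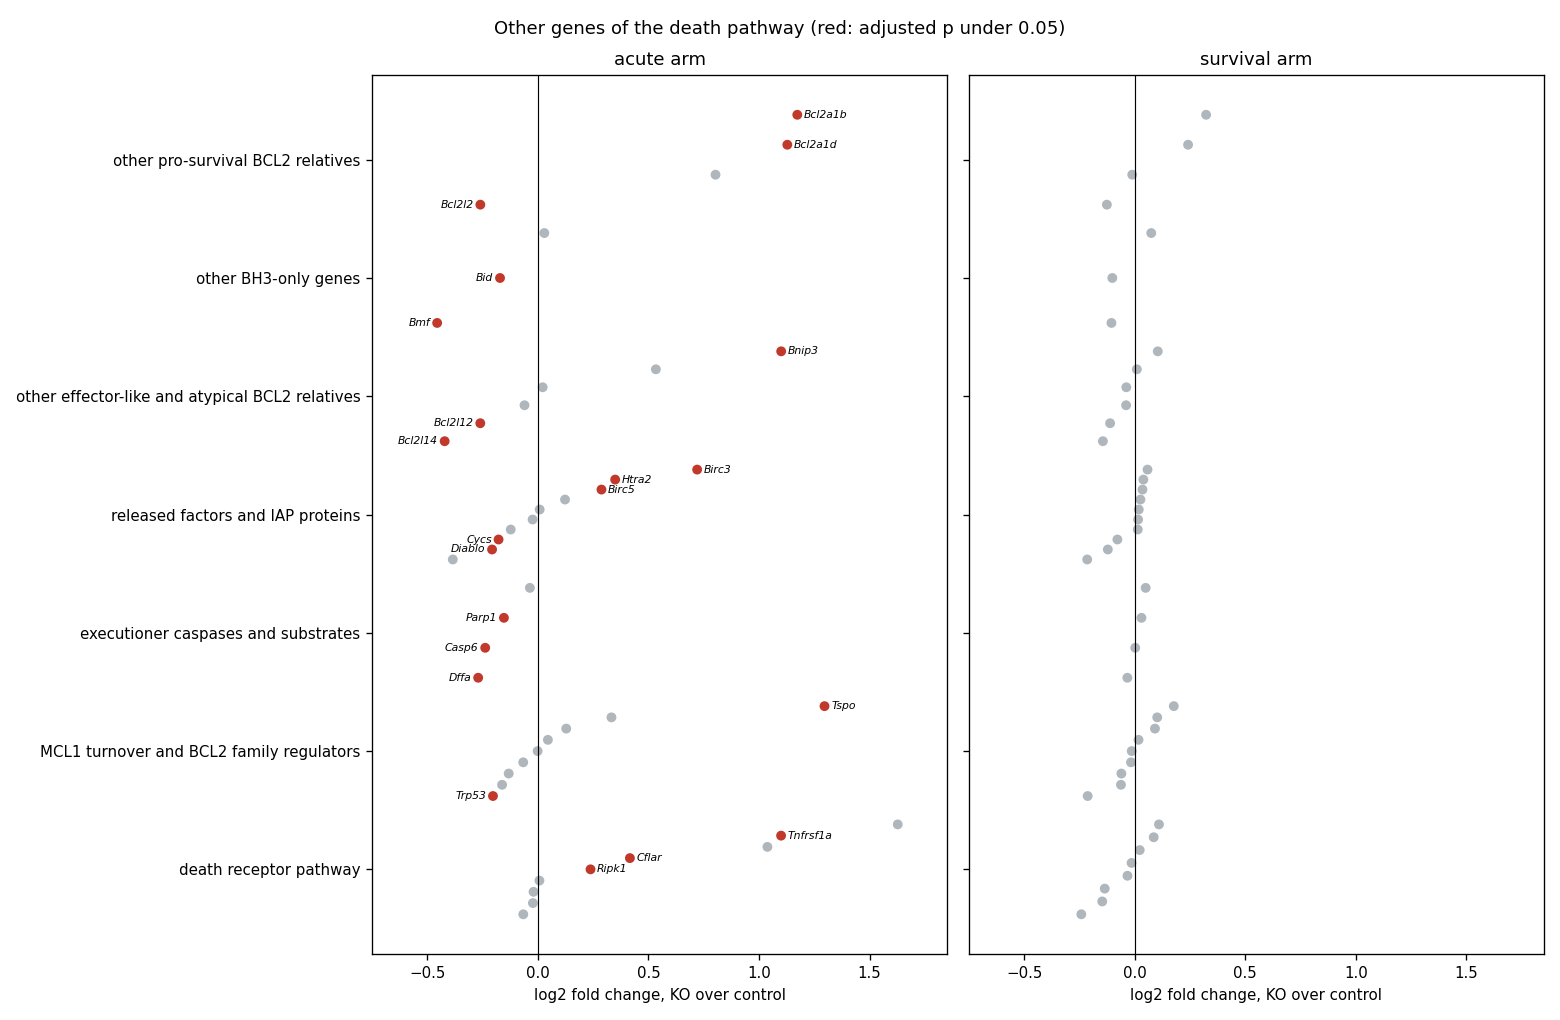
Log2 fold change, KO over control (x axis), of each tested gene of the further lists (rows), in the acute arm (left) and the survival arm (right), red and named where the adjusted p was under 0.05. In the acute arm 10 of 45 points are red on the right of 0 and 11 on the left, which under T-cell receptor beta scaling are at -0.080 to 0.22, below the median gene of 0.35, and in the survival arm 0 of 44 are red.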

How the data were processed

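Strand-specific libraries of polyadenylated RNA were made from spleen suspensions after red cell lysis, with no sort named in the labels. The authors deposited 2 tables of DESeq-normalized counts, a signal scaled within each table, with 1 column per library; the submitters' processing notes name kallisto 0.46.0, DESeq and build GRCm39. The sources used here do not give the annotation, the step to genes or any filter. The deposited values are not whole numbers, and 65.8 to 85.6% of low values per library lay within 0.1 of a whole multiple of the best step, so read counts were not recovered and depth is not known. The library totals given above are sums of scaled values and do not give depth.

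From these values log2(normalized count + 1) was computed, which understates changes of low genes. A gene was tested when it reached 10 in at least 4 libraries (acute) or 5 (survival). Limma 3.58.1 under R 4.3.3 fitted the group means (eBayes with trend), and two-sided p-values were adjusted by Benjamini-Hochberg over all genes of a table, called under 0.05. The arms were compared in 1 fit over 20 libraries on genes tested in both tables. The fit was also run on simulated counts that varied independently between genes, with no gradient of other cell types. The outcome of that run is not given here and does not bear on that gradient. Single genes also had an exact two-sided permutation test. Alternatives were other pseudocounts, filters, scalings and weights, a covariate, a replicate block and libraries left out. The replicate block used only replicate numbers present in both groups of an arm, which left out acute controls 5 and 6. Besides the 10 genes and Acly, up to 3 called genes per list and arm with the largest fold changes were named, with the gene of highest correlation for each of the 10. The genes and lists were chosen with earlier results of these data known, and 2 genes of the lists are not reported here. No 2 libraries were identical. Figures used Python 3.11.15 and matplotlib 3.10.9.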

Additional observations from a re-analysis of the deposited data

Results flagged for a closer look

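The test of the difference between the arms passed for Acly and for 3 of the 10 genes. The survival fold change minus the acute fold change, on the log2 scale, was -0.92 for Acly (adjusted p = 0.000442, limma over 20 libraries), -1.12 for Bcl2 (adjusted p = 0.00537), -0.63 for Apaf1 (adjusted p = 8.27e-06) and -0.36 for Casp9 (adjusted p = 0.0427). Acly fell further at the endpoint, by 1.38, than at 72 h, by 0.46, on the log2 scale, whereas the acute rises of the other 3 genes were near 0 at the endpoint for Apaf1 (-0.040) and Casp9 (0.032) and 0.24 for Bcl2. Arm and marker score moved together: the non-T marker score separated the acute groups and not the survival groups, and with it as a covariate the 4 differences were -0.28, -0.18, -0.41 and 0.0060, with adjusted p-values from 0.992 to 0.999. No library of the 10 genes or Acly lay far enough from its group to pass Dixon's 95% test, in 44 groups checked.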

How the results depend on the processing

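Over all genes, limma called 5140 in the acute arm, 0 after adjustment for the non-T marker score, 3228 with the replicate number as a block, 2137 without acute KO libraries 2 and 3, and 3693 to 5444 with 1 library left out. It called 2 in the survival arm (Acly and, named after its value was seen, Ccnd1, 1.35), 4 with a filter at 50, 11 with array weights, 1 each with T-cell receptor beta scaling, upper-quartile scaling and the covariate, and 1 to 24 with 1 library left out, the highest without survival control 4. It called 3173 differences, 6956 with T-cell receptor beta scaling, 1 with the covariate, 1262 without acute KO libraries 2 and 3 and 2239 to 3585 with 1 library left out. Of the 10 genes, 3 were higher in acute KO, 7 with T-cell receptor beta scaling, 0 with the covariate and 3 to 4 with 1 library left out. Lower was 1, 0 with that scaling, with the covariate and without libraries 2 and 3, and 0 to 2 with 1 library left out. Differences lower at the endpoint were 3, 7 with T-cell receptor beta scaling, 0 with the covariate, 1 without acute KO libraries 2 and 3 and 2 to 3 with 1 library left out. The split of acute calls, 53.1% higher as deposited, was 35.9% with quantile normalization, which moved the median of all genes to -0.14, and 98.7% with T-cell receptor beta scaling. Libraries of KO and control share replicate numbers, but deviations from the group means of same-numbered libraries correlated at -0.066 to 0.14 in the acute and -0.020 to 0.13 in the survival table. These few correlations show no pairing by number, and they cannot exclude one. The block fit kept only replicate numbers present in both groups, so acute controls 5 and 6 were left out of it. Its changes are those of the block and of the missing libraries together. With the replicate block the fold changes were 1.44 for Bcl2, 0.59 for Apaf1, 0.41 for Casp9 and -0.21 for Bcl2l1 in the acute arm, all still called, the Casp9 difference was not called (-0.38, adjusted p = 0.0786), and no other call among the 10 genes changed. With T-cell receptor beta scaling the sign turned for the acute fold changes of Bcl2l1 (0.15), Bax (0.30), Bcl2l11 (0.23) and Bbc3 (0.33), survival fold changes of Bcl2l11 (-0.043) and Casp9 (-0.052) and differences between the arms of Bax (-0.40), Bcl2l11 (-0.27) and Pmaip1 (-0.21). With adjustment for the non-T marker score the sign turned for the acute fold changes of Bcl2l1 (0.21), Mcl1 (-0.33), Bak1 (-0.39), Bcl2l11 (0.24), Bbc3 (0.17), Pmaip1 (-0.30) and Casp9 (-0.057), survival fold changes of Bcl2l11 (-0.017) and differences between the arms of Mcl1 (0.31), Bax (-0.016), Bcl2l11 (-0.32) and Casp9 (0.0060). With acute KO libraries 2 and 3 left out together the sign turned for the acute fold changes of Bak1 (-0.037) and Bcl2l11 (0.038) and differences between the arms of Mcl1 (0.087). With quantile normalization the sign turned for the acute fold changes of Pmaip1 (-0.078), survival fold changes of Casp9 (-0.0080) and differences between the arms of Bbc3 (0.18). With the replicate number as a block, a fit that also left out acute controls 5 and 6, the sign turned for the acute fold changes of Bak1 (-0.019). Without acute control 5 alone, and with no block, Bak1 was -0.0066. With array weights the sign turned for the acute fold changes of Bbc3 (0.0017). Leaving out 1 library at a time turned the sign of values near 0, which ranged over -0.0066 to 0.14 for Bak1 (acute), -0.089 to 0.016 for Bbc3 (acute), -0.092 to 0.028 for Bax (survival), -0.071 to 0.13 for Bcl2l11 (survival), -0.014 to 0.086 for Casp9 (survival), -0.12 to 0.030 for Mcl1 (difference), -0.013 to 0.11 for Bax (difference) and -0.17 to 0.031 for Bbc3 (difference). Groups of 4 to 6 libraries limit the precision, and read depth per library is not known. The causes of these changes were not tested.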

Other observations

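Genes with the most similar profile were looked up for each of the 10 genes as the highest Pearson correlation of log2 values over the 10 libraries of a table, among the genes with a mean normalized count of at least 100 (10375 in the acute and 10175 in the survival table). The libraries share the KO and control groups and, in the acute table, the gradient of other cell types, so these are descriptions with no test. In the acute table the gene most like Bcl2 was Tlr13, an endosomal pattern-recognition receptor of myeloid cells (r = 0.99), the gene most like Apaf1 was Adam8, a metalloprotease of leukocytes (r = 0.99), and the gene most like Casp9 was Wdr1, an actin-disassembly factor (r = 0.99). For the others they were Sesn3 for Bcl2l1 (r = 0.97), Mob3c for Mcl1 (r = 0.93), Aen for Bax (r = 0.93), Alas2 for Bak1 (r = 0.88), Slc38a9 for Bcl2l11 (r = 0.95), Sfi1 for Bbc3 (r = 0.94) and Gm20716 for Pmaip1 (r = 0.91). In the survival table they were Pdia6 for Bcl2 (r = 0.97), Thra for Bcl2l1 (r = 0.97), Rimoc1 for Mcl1 (r = 0.97), Trappc5 for Bax (r = 0.98), Gm11695 for Bak1 (r = 0.91), Slc7a11 for Bcl2l11 (r = 0.97), Gm49960 for Bbc3 (r = 0.93), Cep192 for Apaf1 (r = 0.90), Cd36 for Casp9 (r = 0.96) and Cd28 for Pmaip1 (r = 0.94). None of the 10 genes had the same gene as its closest match in both tables.

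The BH3-only genes Bik and Hrk and the effector-like gene Bok were under the filter in both tables. Mean normalized counts were 5.41 for Bik, 0.95 for Hrk and 5.31 for Bok in acute KO, against 1.9, 2.93 and 3.61 in acute control libraries, in the same order of genes. Fasl, the ligand of the death receptor Fas, was tested in the acute table alone, at 13.7 ± 6.4 in acute KO and 4.8 ± 4.19 in acute control libraries, and did not pass (adjusted p = 0.0665).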
